A study of Mus musculus with 8 samples.

Results

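The regions described here are first introns of 1 kb or more, each set beside the second and the last intron of the same gene, and the question is where along them the histone mark H3K36me3 begins. For each protein-coding gene on mouse chromosomes 1 to 19, the transcript with the longest genomic span in GENCODE M21 (build mm10) was taken if it had 4 or more exons. This gave 15621 genes with 174202 introns, of which 11583 first introns were 1 kb or longer. The rule for these 11583 members uses only the annotation, but it was chosen with earlier results of these data known. A gene was called marked when at least 10% of its body lay in H3K36me3 peaks in at least 1 library, and 6336 of the members lay in marked genes. The values below are for those 6336 unless all 11583 are named.

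The 4 libraries came from i4F mouse embryonic fibroblasts (MEFs) of 1 embryo at E13.5, called Clone 1 in the labels and MEF 1 in the study. In these cells doxycycline switches on OCT4, SOX2, KLF4 and MYC (OSKM), the factors used for reprogramming, and every culture was grown for 72 h in iPSC media. Doxycycline is given as in the labels, at 1 µg/mL. The methods of the study state 1 mg/mL, which is a different dose. The conditions were cells with neither agent (MEF), cells with 2 µM vitamin B12 (MEF B12), cells with 1 µg/mL doxycycline (OSKM) and cells with both (OSKM B12). Each condition had 1 H3K36me3 ChIP–seq library, called against its own input, so differences between conditions could not be set against replicates and no p-values were computed. Where 4 values are given without their libraries, they stand in the order MEF, MEF B12, OSKM, OSKM B12. The H3K36me3 libraries held between 29046913 and 33399267 tags after the authors' filters, and 64364 to 67234 peaks per library lay on these chromosomes. OSKM had the most tags and the fewest covered bases, 91.8 Mb of peaks against 150.5 Mb in MEF and 162.6 Mb in each of the B12 libraries. All 8 fibroblast markers listed were marked in the 4 libraries and none of the 4 epithelial, 3 neuronal or 5 pluripotency markers was. Of the 4 blood markers, Cd74 was marked in MEF, MEF B12 and OSKM B12 and Vav1 in MEF B12, with at most 29.8% of the body covered, and of the 4 endothelial markers Tek was marked in OSKM B12 at 26.6%. The part of other cell types in the values below was not tested.

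H3K36me3 is laid down by SETD2, an enzyme that travels with elongating RNA polymerase II, so the mark covers the bodies of transcribed genes and is low at their promoters. The first intron follows the promoter. It is often the longest intron of a gene, and it commonly holds regulatory elements and the downstream part of a CpG island. The splice site at its end, where exon 2 starts, is the place against which the start of the mark is measured here.

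To show that place, the sequence across the junction is given for 5 genes with the longest first introns among those whose mark began within 1 kb of exon 2 in all 4 libraries (genes without another gene in their body or another annotated start in intron 1), and for Wdr5, which encodes a subunit of H3K4 methyltransferase complexes. The 40 bases in lower case are the end of intron 1, and the 20 bases in capitals are the start of exon 2 (mm10, read 5′ to 3′ on the strand of the gene).
Ptk2b, chr14:66213533-66213592, minus strand: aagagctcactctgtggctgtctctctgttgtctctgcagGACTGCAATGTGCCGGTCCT
Spred1, chr2:117152952-117153011, plus strand: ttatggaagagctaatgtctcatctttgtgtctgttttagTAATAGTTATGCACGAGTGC
Trak2, chr1:58946516-58946575, minus strand: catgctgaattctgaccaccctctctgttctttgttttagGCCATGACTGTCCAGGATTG
Abhd17b, chr19:21678313-21678372, plus strand: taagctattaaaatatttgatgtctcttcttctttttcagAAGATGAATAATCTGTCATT
Kdm5b, chr1:134585114-134585173, plus strand: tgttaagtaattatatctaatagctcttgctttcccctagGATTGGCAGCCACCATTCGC
Wdr5, chr2:27518589-27518648, plus strand: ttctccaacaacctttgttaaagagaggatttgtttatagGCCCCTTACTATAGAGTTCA

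Each of the 6 introns ended in the usual AG. Over all 6336 members, 98.9% of first introns began with GT and ended with AG, close to the 99.1% of second and 99.2% of last introns. Exon 2 of Spred1 and Kdm5b started in coding sequence. In Ptk2b, Trak2, Abhd17b and Wdr5 it started in the 5′ UTR and the coding sequence began within it.

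First introns were nearly free of the mark while later introns of the same genes carried it. In MEF, the mean share of an intron lying in peaks was 5.98% for first introns (SD over genes 12.6), 48.9% for second introns and 80% for last introns. MEF B12 gave 7.08, 53.4 and 82.7% in the same order. OSKM gave 2.63, 28.7 and 60.7%, and OSKM B12 gave 8.1, 54 and 82.6%. The order first, second, last held in each library. Over all 11583 members, most of the unmarked genes having no peak, the MEF means were 3.34, 27.1 and 45.8%.

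Within genes, the first intron was less covered than the last in 5920 of 6336 genes in MEF (93.4%, Wilson 95% interval 92.8 to 94, counting error only) and more covered in 128. Against the second intron it was less covered in 77.5%, with 1164 of the genes having no peak in either. The share below the last intron was 94.4% in both B12 libraries and 83.8% in OSKM. In OSKM, 849 genes had no peak in either intron. Complete coverage was rare in first introns. In the order MEF, MEF B12, OSKM, OSKM B12, 14, 16, 5 and 18 first introns lay wholly in peaks. Any peak at all touched 43.7, 48.2, 28.2 and 51% of them. There were 1388 first introns with a peak in every library and 2336 with none in any.

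Coverage rose along the first intron and did so mainly at its end. With each intron cut into 10 bins of equal length, the first bin was covered over 1.3% in MEF on average and the last bin over 16.6%. In OSKM the last bin stood at 7.68%, and in OSKM B12 at 21.6%. The last bin of second introns was at 53.6% in MEF, and these introns were already marked in their first bin, at 46.1%.

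**Figure D1:**
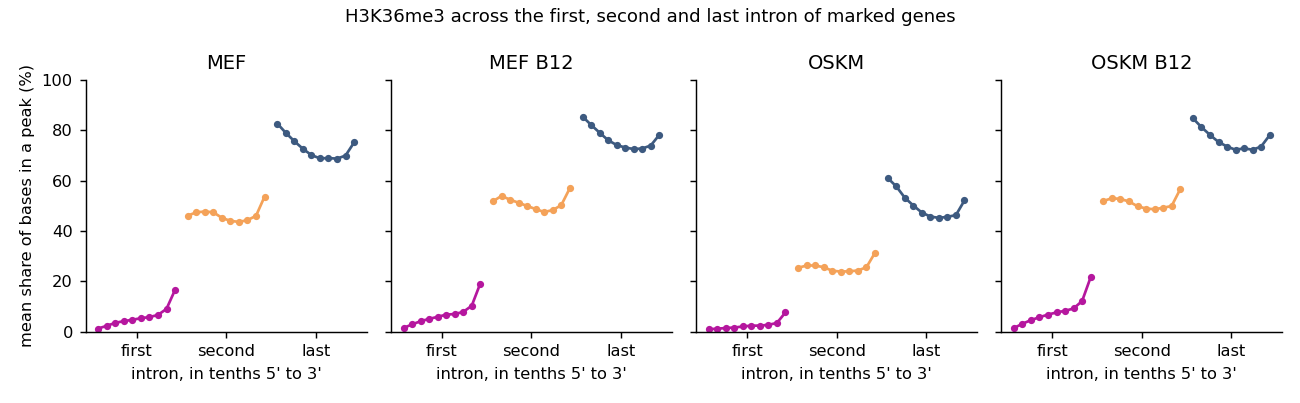
Mean share of bases in H3K36me3 peaks (percent, vertical axis) in 10 bins of equal length along the first, second and last intron, read 5′ to 3′, for the 4 libraries. First introns are the 6336 members in marked genes, and second and last introns are those of the same genes that are 1 kb or longer (4512 and 3520). First introns end at 16.6% in MEF and 7.68% in OSKM, below every bin of the later introns in the same library.

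First introns were longer than the introns they are compared with (median 5708 bases, against 2108 for second and 1186 for last introns), so coverage was also read within classes of length. Among introns of 1 to 2 kb, first introns were covered over 2.52% in MEF, second introns over 56.5% and last introns over 83.5%. At 2 to 5 kb the values were 6.87, 53.9 and 74.2%. At 10 to 20 kb they were 6.43, 25.4 and 37.5%. The difference between first and second introns was gone over 50 kb, where 252 first introns stood at 5.01% and 90 second introns at 4.88%. Long introns of either kind were thus little covered, and the contrast was widest among the short ones.

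First introns also lie nearer the transcription start site (TSS). At 2 to 5 kb from the TSS in MEF, 7.83% of the bases inside first introns were in peaks, against 62.4% of bases past exon 2 in the genes that had already reached it. At 5 to 10 kb the shares were 8.78 and 68.5%, and at 20 to 50 kb they were 4 and 54.4%. The gap was present in each library and at each distance measured, OSKM included, where it was 3.46 against 47.6% at 5 to 10 kb. The share past exon 2 was lowest at 1 to 2 kb, at 23% in MEF, where it rests on 848 genes and 0.364 Mb.

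**Figure D2:**
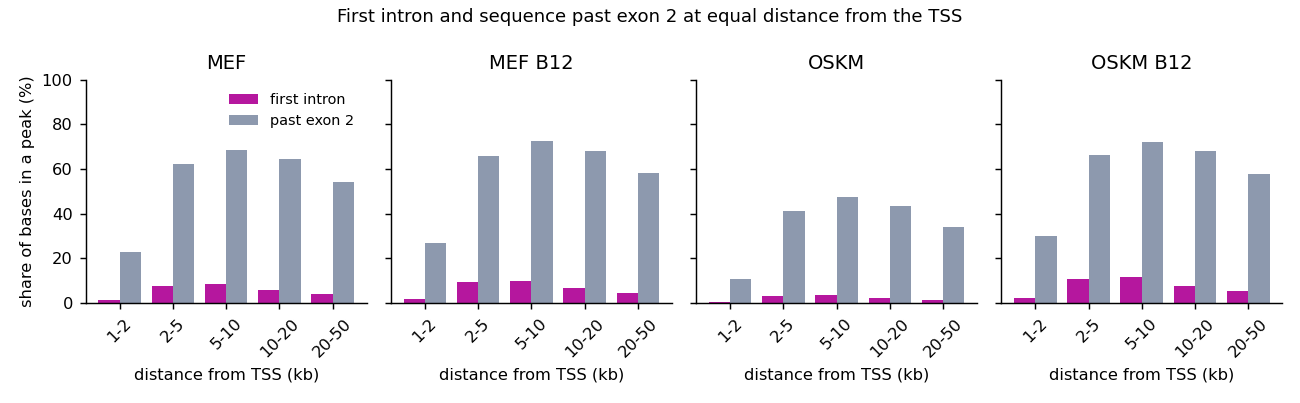
Share of bases in peaks (percent, bars from 0) inside first introns and past exon 2 in marked genes, in 5 classes of distance from the TSS, for each library. In MEF the first intron bars stay between 1.42 and 8.78%, while the bars past exon 2 run from 23 to 68.5%.

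The start of the mark, taken as the most upstream base of the gene body in a peak, had its median close to exon 2. Its median distance from the first base of exon 2 was 103, 25, 649 and -22 bases, where a negative distance lies in the first intron. The start fell within 1 kb of exon 2 in 3062 of 6306 genes in MEF (48.6%, interval 47.3 to 49.8) and in 49, 39 and 47.1% of genes in MEF B12, OSKM and OSKM B12. The same count against the start of exon 3 was 25.8, 23.9, 29.3 and 22.9%, so exon 2 and exon 3 differed least in OSKM. The fragments were about 290 bases long, between 288 and 292 by the authors' estimate, which limits how finely an edge can be placed.

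Between 2 and 50 kb of first intron, the median start of the mark in MEF moved with exon 2, though single genes spread widely around it. In MEF, the median start was 3624 bases from the TSS for first introns of 2 to 5 kb, 12431 bases for those of 10 to 20 kb and 23474 bases for those of 20 to 50 kb. Its median distance from exon 2 in the same classes was 99.5, -52 and -161 bases. Starts within 1 kb of exon 2 made up 66.7, 35.2 and 26.6% of these classes, and starts in intron 1 made up 39.7, 51.6 and 54.9%. The shortest class, 1 to 2 kb, began later, at 618 bases past the first base of exon 2 in MEF and 1216 bases in OSKM, and 12.5% of its genes began in intron 1 in MEF. Introns over 50 kb departed the other way, with a median of -45906 bases, and only 11.1% of them had a start within 1 kb of exon 2. In both B12 libraries the class of 20 to 50 kb departed too, at -2886 bases in MEF B12 and -7488 bases in OSKM B12.

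Among genes with a first intron of 10 kb or more, the 1 kb from the first base of exon 2 on held more starts than any other window of 1 kb within 10 kb, though not most of all starts. In MEF, 418 of 2149 genes (19.5%) had their start in the 1 kb past the first base of exon 2 and 201 (9.35%) in the 1 kb before it. The neighbouring windows held 28 genes (1.3%) on the intron side and 164 (7.63%) on the exon side. In OSKM the same 4 windows, from upstream to downstream, held 0.938, 6.24, 17.2 and 8.72% of 2133 genes. Starts more than 10 kb before exon 2 made up 31.1% in MEF, 34.7% in MEF B12, 37.6% in OSKM B12 and 21.9% in OSKM, and starts 10 kb or more past it made up 6.14% in MEF and 15.4% in OSKM. Coverage in these genes stepped up at the same place, from 5.55% in the window from -1000 to -501 bases to 43.5% in the 500 bases from the first base of exon 2 on in MEF, and from 2 to 22.7% in OSKM.

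**Figure D3:**
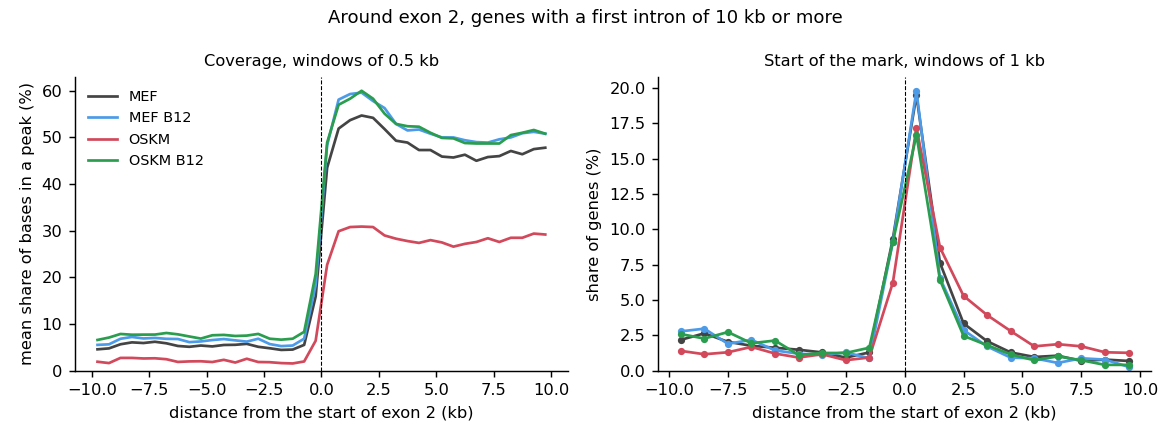
Left, mean share of bases in peaks (percent) in windows of 500 bases around the first base of exon 2 (dashed line, kb on the horizontal axis) for marked genes with a first intron of 10 kb or more. Right, the share of the same genes whose mark begins in each window of 1 kb. The 4 libraries step up at the same place, MEF from 5.55 to 43.5% and OSKM from 2 to 22.7%, and the window just past exon 2 holds 16.7 to 19.8% of starts.

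The mean step at exon 2 was larger than that at exon 3. Averaged over 4512 genes, coverage of the 1 kb after exon 2 was 50.7% in MEF and that of the 1 kb before it was 11.4%, a rise of 39.2 percentage points. Across exon 3 it rose from 45.9 to 67.7%, by 21.8 points in 3283 genes, and across the last exon of 3520 genes it fell from 71.5 to 52.2%. In OSKM the rise at exon 2 was 23.3 points and that at exon 3 was 18.6 points. In MEF 63.3% of genes rose across exon 2 and 48.9% across exon 3. In OSKM the shares of genes that rose were 44.5 and 46.2%, so there exon 2 stood out by the size of the rise and not by the number of genes.

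Peaks in first introns were of 2 kinds. In MEF, 1993 peaks (32.6% of those touching a first intron) ran across the junction into exon 2. They had a median length of 4687 bases, of which a median of 241 bases reached back into the intron. A further 4049 peaks (66.2%) lay wholly inside the intron. These were short and low, with a median length of 597 bases and a median scaled pileup (fragments over a base per 1000000 tags) of 0.389, against 0.603 for the crossing peaks. Together they held 79.8% of the covered first intron bases (4.07 Mb), and the crossing peaks held 18.6% (0.949 Mb). Of the bases in these inside peaks, 36.8% lay in another annotated gene as well, where 14.4% of all first intron bases do. The crossing peaks numbered 2247 in MEF B12, 2396 in OSKM B12 and 979 in OSKM.

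Mean coverage per first intron differed little with the gene annotation. First introns with no other annotated start of the gene were covered over 6.07% in MEF, and those with one over 5.84%. First introns of genes that overlap no other gene were covered over 5.86% and those of overlapping genes over 6.08%.

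First introns differed from later ones in sequence as well. The ratio of observed to expected CpG dinucleotides had a median of 0.267 in first introns, 0.191 in second and 0.188 in last introns, and it was 0.518 in the first 1 kb of first introns and 0.199 in their last 1 kb. Median GC was 51.6% in that first 1 kb and 45.5, 44.2 and 46.2% in first, second and last introns. With the first introns cut into 4 classes of equal size by the CpG ratio of their first 1 kb, coverage in MEF from the lowest class to the highest was 8.84, 6.21, 5.21 and 3.67%. In OSKM it was 4.32, 2.47, 2.24 and 1.51%. The share of first introns touched by a peak in MEF was 43.8, 46, 45.3 and 39.5% in the same classes, so it was not highest in the lowest class. The median intron length was 4663, 4482, 5802 and 9010 bases. The part of length in these values was not tested.

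OSKM induction and vitamin B12 were then compared over the same introns. The ratio of the mean covered share in OSKM to that in MEF was 0.44 for first introns, 0.587 for second and 0.759 for last introns. With B12 added to OSKM, the ratio to OSKM was 3.08, 1.88 and 1.36 in the same order. With B12 added to MEF the ratios to MEF were 1.18, 1.09 and 1.03. First introns thus changed most in relative terms in each comparison. In percentage points they changed least, from 5.98 to 2.63% between MEF and OSKM, where second introns went from 48.9 to 28.7% and last introns from 80 to 60.7%. The same 6336 genes, called marked by their coverage in any of the libraries, entered each comparison.

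The height of the signal changed alike in the 3 kinds of intron. Over the 1.51 Mb of first intron lying in peaks in all 4 libraries, the mean scaled pileup was 0.646, 0.736, 0.497 and 0.806. The ratio of OSKM to MEF was 0.769 (0.762 to 0.776, counting error only) in first introns, 0.757 in second and 0.766 in last introns. OSKM B12 stood at 1.62, 1.57 and 1.54 times OSKM. These bases are by construction the ones that stay above the calling threshold in OSKM. A peak has 1 mean pileup for its whole length, so a gradient inside a peak cannot be seen in these values.

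Low peaks were lost more often than high ones, in first and in last introns. Of the MEF-covered first intron bases in peaks with a scaled pileup under 0.4, 9.98% were also in a peak in OSKM, and of those in peaks of 0.65 and over, 66% were. For last introns the shares were 14.9 and 84.9%, and for second introns 11.6 and 71.3%. At like height, first intron bases were thus kept somewhat less often. Over all heights the kept share was 33.8% in first, 44.1% in second and 61.9% in last introns. MEF B12 kept 67.9, 82.4 and 91.3% of the same MEF bases. Low peaks were lost more often there too. In first introns MEF B12 kept 39% of the bases in peaks under 0.4 and 90.6% at 0.65 and over. In last introns it kept 54.4 and 99.2%.

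By density (scaled pileup summed over peak bases and divided by intron length, with 0.05 added), 1248 first introns (19.7%) were at least 1.5-fold lower in OSKM than in MEF and 108 (1.7%) at least 1.5-fold higher. The count of lower introns depends on the settings, as it was 358 with 0.2 added and 629 at 2-fold. Over all 54868 introns of 1 kb or more in marked genes, 56.2% were lower and 1.27% higher by this measure. No peak lay in either library in 3280 of the first introns, and of the 3056 with a peak 40.8% were lower. Among all introns with a peak the share was 64.2%, so first introns had the smaller share without the empty ones as well. With 0.2 added, these 2 shares were 11.7 and 42.8%. The added value keeps introns of very low density from being called in either direction. The smaller share therefore does not show that first introns lost less of their mark. By mean covered share they had the lowest ratio of OSKM to MEF, 0.44. The part of the added value in these shares was not tested. In OSKM B12 against OSKM, 29.8% of first introns were higher, and 74.4% of all introns were. In MEF B12 against MEF, 10.7% of first introns and 14.1% of all introns were higher.

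The start of the mark lay further downstream in OSKM than in MEF in 4764 of 6182 genes (77.1%, interval 76 to 78.1), where all marked genes gave 76.4%, and further upstream in 1379 (22.3%, and 22.5% of all marked genes). The median shift was 625.5 bases downstream. A downstream shift of 1 kb or more was found in 41.1% of members, against 37.6% of all marked genes and 27.2% of genes with a first intron under 1 kb. In OSKM B12 against OSKM the start lay further upstream in 5200 of 6189 genes (84%), where all marked genes gave 83.4%, with a median shift of -943 bases. It lay at least 1 kb upstream in 48.8% of members and 44.4% of all marked genes. In MEF B12 against MEF, 58.3% of starts lay upstream (57.1% over all marked genes), with a median of -86.5 bases. OSKM B12 against MEF B12 gave 53.8% upstream (54.1% over all marked genes) and a median of -38 bases. The shares of members that moved in either direction were thus near those of all marked genes, of which members are the larger part. Genes with a first intron under 1 kb gave 74.5% downstream in OSKM against MEF, with a median of 360.5 bases. In OSKM B12 against OSKM they gave 81.5% upstream, with a median of -510.5 bases and 31% at least 1 kb upstream. These comparisons share libraries and are not independent of one another.

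Fewer genes had their start in the first intron in OSKM, where a start is that of the first called peak. Whether low peaks falling below the calling threshold gave this difference was not tested. Starts inside intron 1 made up 42.5, 46.9, 27.1 and 49.8% of all starts, with OSKM the lowest of the 4 libraries. Starts past exon 2 made up 46.9, 42.4, 62.7 and 40.3%, with OSKM the highest. Exon 2 itself held 9.18, 9.28, 7.98 and 8.54%. Of the 2677 genes that began in intron 1 in MEF, 1392 (52%) also did so in OSKM, 268 (10%) began in exon 2 and 957 (35.7%) past it. In OSKM B12, 2301 of the 2677 (86%) began in intron 1.

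The group of genes with a start at the TSS was larger in OSKM than in the other libraries. The mark began at the TSS itself in 64, 65, 113 and 61 genes, OSKM being the library with 113. Of the 64 genes in MEF, 35 also began there in OSKM. The peaks over the TSS had a median length of 518 bases in OSKM, where 86 of them were under 1 kb, and 3426 bases in MEF, where 15 were. Their median scaled pileup was 0.54, 0.639, 0.388 and 0.71, so the OSKM peaks were also the lowest. Of the 113 genes, 69 overlapped another annotated gene, and of the 64 genes in MEF, 45 did, where 3575 of all 6336 members did. Kdm4a, which encodes an H3K36me3 demethylase and was listed for that role, came close to this group. Its first intron was covered over 0, 1.04, 24.3 and 2.72%, and its mark began 100 bases from the TSS in OSKM and 2487 bases in MEF. Its body overlaps another annotated gene.

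**Figure D4:**
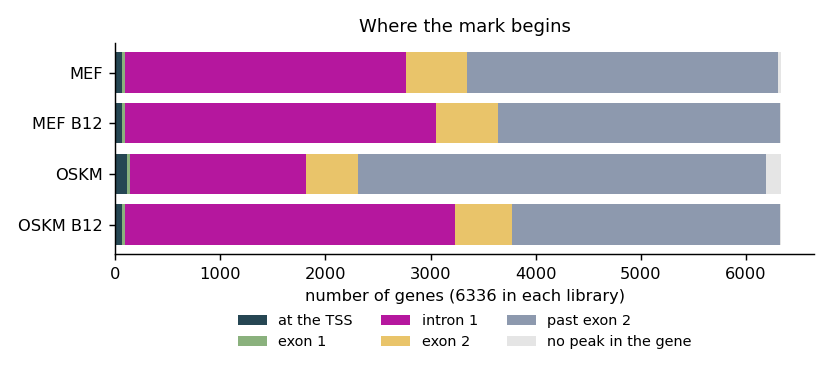
Number of marked genes (6336 in each library) by where the mark begins, one bar for each library. The part for intron 1 shrinks from 2677 genes in MEF to 1679 in OSKM and is 3147 in OSKM B12, and the part past exon 2 grows from 2957 to 3881 and is 2548.

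Among genes of fibroblast matrix and cytoskeleton, the first introns of several collagens and partners were unlike the rest in being widely covered. Of the 12 genes listed, 11 had a first intron of 1 kb or more and all 11 were marked, with a median first intron coverage of 36.8, 29.2, 9.76 and 44.7%. The median over all members in marked genes was 0, 0, 0 and 0.27%. The mark began in intron 1 in 7 of them in MEF and within 1 kb of exon 2 in 2.

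Col1a2, which encodes a chain of type I collagen, had 83.1% of its first intron of 2425 bases (chr6:4505910-4508334) in peaks in MEF, while 71.6, 11.9 and 62.1% were covered in MEF B12, OSKM and OSKM B12. OSKM was the low library and the other 3 lay above 60%. Col3a1, for type III collagen, had 62.8, 75, 14.3 and 49% of 9664 bases covered in the same order. Its mark began 1627 bases from the TSS in MEF and 5183 bases in OSKM. For Col5a1, a type V collagen gene with a first intron of 35092 bases, the shares were 36.8, 29.2, 9.76 and 50.1%. Fbn1, which encodes the microfibril protein fibrillin, had 39.8, 45.2, 22.5 and 57.2% of 26167 bases covered, and Sparc, for a collagen-binding matrix protein, 46.7, 53.3, 24.1 and 56.8% of 13003 bases. In these 5 genes OSKM held the lowest value.

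Col1a1, the other type I collagen chain, and Cald1, for the actin-binding protein caldesmon, did not follow. The first intron of Col1a1, of 1465 bases, was covered over 68.4, 100, 100 and 44.7%, so OSKM was not the low library. That of Cald1, of 63462 bases, was covered over 0.695, 0.534, 1.01 and 0.481%, with OSKM the highest. Fn1, Postn and Tpm1, for fibronectin, periostin and a tropomyosin, had first introns of 1107 to 1359 bases with no peak in any library, although their last introns were covered over 60.5 to 100%. In Fn1 the mark began 947 bases past the first base of exon 2 in MEF and 1521 bases past it in OSKM.

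First introns of transcription factor and signalling genes mostly carried little mark. Of 9 such genes with a first intron of 1 kb or more, 6 were marked, and Ext1, Lpp and Rora fell short of 10% of the body. The 6 had a median first intron coverage of 2.14, 2.97, 1.08 and 3.42%. Prrx1, which encodes a homeobox factor of mesenchyme, stood apart with 29.9, 30.9, 12 and 42.2% of 50379 bases. Smad3, an effector of TGFβ signalling, was covered over 3.12, 4.98, 1.76 and 5.85% of 89549 bases. Its second intron was covered over 100% in MEF and 0% in OSKM.

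The genes of transcription and H3K36 methylation mostly fitted the general pattern of a bare first intron. All 8 with a first intron of 1 kb or more were marked, each with a lower coverage of the first than of the last intron in all 4 libraries, and the medians of first intron coverage were 1.18, 0.518, 0 and 2.7%. Nsd1, for an H3K36 methyltransferase, Kdm2a, for an H3K36 demethylase, and Iws1, for an elongation factor, had no first intron peak in any library. Nsd1 began 243, 41, 1090 and 155 bases past the first base of exon 2, furthest downstream in OSKM. Setd2, for the H3K36me3 methyltransferase, had 2.35% of 12547 bases covered in MEF, none in MEF B12 or OSKM, and 3% in OSKM B12. Supt6, for a histone chaperone that binds elongating polymerase, was the most covered, at 19, 38.8, 13.5 and 56% of 11864 bases.

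Wdr5 showed the shift at the junction printed above. Its mark began at -207 bases in MEF, at -318 in MEF B12 and at -90 in OSKM B12, all 3 in the first intron (chr2:27515281-27518628), and 857 bases past the first base of exon 2 in OSKM. The second intron was covered over 100% in MEF and 0% in OSKM, while the last intron was covered over 100% in each library.

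Housekeeping genes carried some mark in most of their first introns. All 7 with a first intron of 1 kb or more were marked, with medians of 8.36, 8.76, 2.55 and 9.88%. Pkm, for a pyruvate kinase of glycolysis, had 53.7, 54, 41.3 and 56.9% of 8550 bases covered. Gapdh had no first intron peak in any library. In Canx, which encodes the chaperone calnexin, 8.36, 18, 3.88 and 9.75% of 13712 bases were covered.

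**Figure D5:**
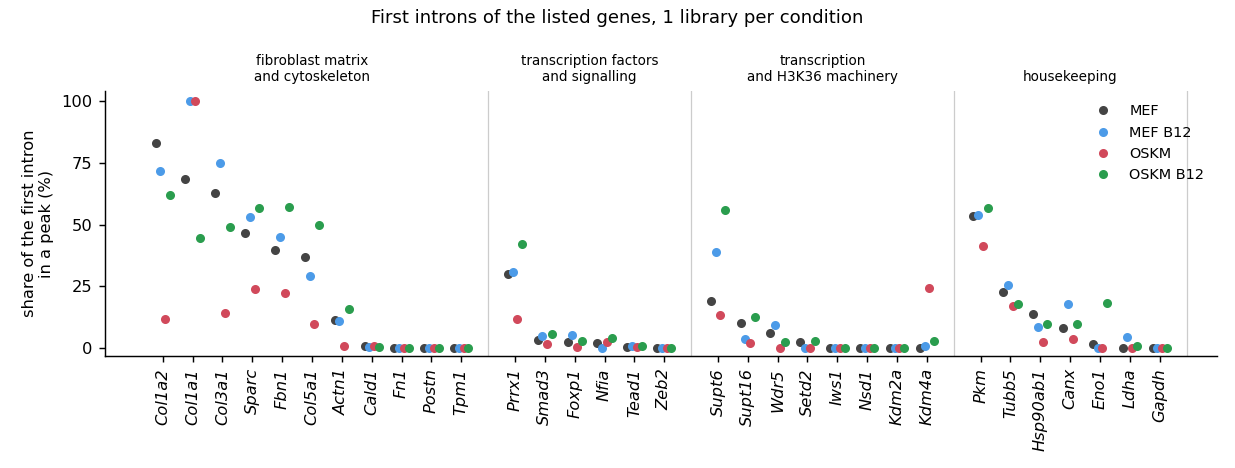
Share of the first intron in peaks (percent, vertical axis) for each listed gene in a marked gene body with a first intron of 1 kb or more, 1 point for each library, in the 4 groups fixed for the text. OSKM is the lowest of the 4 points in Col1a2 (11.9%), Col3a1 (14.3%) and Col5a1 (9.76%), and the highest, alone or tied, in Col1a1 (100%), Cald1 (1.01%) and Kdm4a (24.3%).

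The remaining genes were named by their values, which are therefore descriptions only. Among the 1749 marked members that overlap no other gene and have no other start in the intron, 436 (24.9%) began within 1 kb of exon 2 in all 4 libraries. The longest first intron among these was that of Ptk2b, a focal adhesion kinase family gene, with 67330 bases (chr14:66213553-66280882). No library had a peak in it, and the mark began 336, 320, 813 and 95 bases past the first base of exon 2. Spred1, for an inhibitor of Ras signalling, began at -104, -100, 320 and 34 bases after a first intron of 31235 bases. Trak2, for an adaptor of mitochondrial transport, began at -172, 118, 223 and 219 bases after 26701 bases. Abhd17b, for a depalmitoylase, began at 261, -71, 214 and 6 bases after 24759 bases. Kdm5b, for an H3K4 demethylase, began at 92, -250, -280 and 195 bases after 24611 bases. The rule that chose these 5 genes keeps each start within 1 kb of exon 2, so small moves between libraries are built in. In Kdm5b and Abhd17b OSKM was not the library with the furthest downstream start.

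First introns covered over at least 50% in all 4 libraries were few, 6 of the 1749. The longest was that of Trim8, for a ubiquitin ligase, with 53, 50.1, 56.9 and 73.3% of 9709 bases. Napa, for a SNARE-recycling protein, had 61.7, 65.4, 52.1 and 59.8% of 8778 bases, and Cdc37, for an Hsp90 co-chaperone, 62.3, 56.4, 51.5 and 66.8% of 6530 bases. Zscan25, a zinc finger gene, was covered over 100% from the TSS onward in each library.

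Of 795 such first introns of 5 kb or more, 18 were covered over at least 50% in MEF. The largest downstream shift in OSKM among these was that of Cmas, for the enzyme that activates sialic acid, where the start moved from 1817 to 3339 bases from the TSS and coverage of 7260 bases was 61, 37.7, 4.89 and 57.1%. In Ptn, for the growth factor pleiotrophin, the start moved from 1747 to 2714 bases and coverage of 65388 bases was 57.1, 62.6, 21.3 and 65.2%. Plpp3, for a lipid phosphate phosphatase, had 60, 64.5, 19.1 and 72.3% of 36839 bases covered. In Cmas, Ptn and Plpp3 the mark still began inside intron 1 in OSKM, and the loss was of coverage further along the intron.

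Among the genes with the furthest upstream start in OSKM relative to MEF, Sipa1l1, Bcr, Kif24 and Myo1e had first introns of 35727 to 79208 bases with at most 1.11% covered in OSKM. Bcr, for a GTPase regulator, began at -105 bases in MEF and at -59235 in OSKM. Its first intron was covered over 0.167% in MEF and 1.11% in OSKM, so the start there rested on little covered sequence.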

How the data were processed

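The 4 H3K36me3 peak lists (MEF, MEF B12, OSKM, OSKM B12) were grouped by their labels. Before deposition, the authors mapped the reads to mm10 (Bowtie 0.12.9), took out duplicates and called broad peaks with MACS2 2.2.6 in each library against its own input, with q cut-offs of 0.05 and 0.1. Deposited values were the pileup, a signal of mean fragment coverage per peak, the fold enrichment over the input, a ratio, and p-value and q-value as −log10. The pileup was not scaled by the authors and was divided here by tags per 1000000.

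Genes came from GENCODE M21 and sequences from the GRCm38.p6 RefSeq FASTA. No peak passed the end of a chromosome. Coverage, starts and densities were computed with Python 3.11, numpy 2.4.6 and pandas 2.3.3. Chromosomes X and Y were left out. Shares carry Wilson 95% intervals, which cover counting error only. With 1 library per condition there was no test. Sequencing depth limits how small an enrichment the caller could find. The interval arithmetic, tested on simulated data, differed in 0 of 300 cases, and 0 of 2000 simulated starts were misplaced.

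Named genes were a listed set of 40 genes in 4 groups and, among marked genes without overlap or another start in intron 1, 5 each by 4 rules on length, coverage and shift. Of these, 1 gene is not reported here. The members and lists were chosen with earlier results of these data known. Alternatives were stricter, ranked or merged peaks, other transcripts, gene sets, intron lengths, definitions of the start, scalings, shared bases, pseudocount and fold. The marked genes were kept fixed when peaks were filtered.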

Additional observations from a re-analysis of the deposited data

Results flagged for a closer look

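Several values differed between OSKM and MEF in opposite directions without and with B12. Each rests on 1 library per condition, and the differences between the contrasts were not tested. The mean covered share of first introns differed by -3.35 percentage points without B12 (2.63 against 5.98%) and by 1.02 points with it (8.1 against 7.08%). For second introns the differences were -20.2 and 0.6 points. The share of genes whose mark began in intron 1 differed by -15.4 and 2.9 points, and the share beginning past exon 2 by 15.8 and -2.1 points. The median start of the mark relative to exon 2 differed by 546 bases without B12 and -47 bases with it. The share beginning at the TSS differed by 0.81 points without B12 (113 against 64 genes) and -0.065 points with it (61 against 65 genes). For this share OSKM B12 differed from OSKM by -0.855 points. MEF B12 differed from MEF by 0.02 points (65 against 64 genes), too few genes to give that difference a sign.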

How the results depend on the processing

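No result reversed under any alternative run. With peaks of −log10 q of at least 5, the first intron was below the last in 60.4% of the 6336 genes. Genes without such a peak in either intron count there as not below. Of 4568 starts, 25.2% lay in intron 1. Of 1358 genes 89% began further downstream in OSKM, and of 1371 genes 94.2% began further upstream in OSKM B12 than OSKM. Those shares rest on far fewer genes than the 6182 and 6189 of the main run. The pileup ratio was 0.739, and the covered share ratios of first introns were 0.133 (OSKM to MEF) and 11.4 (OSKM B12 to OSKM). With first introns of 5 kb or more, 94.3% were below the last and 53.6% held the start. The first was below the last in 94.5% with all 3 introns of 1 kb or more. Marking by 10% of the body in each library gave 97.7 and 47.9%, and marking by the body past exon 2, chosen after seeing the data, 92.6 and 41.2%. Genes with no other start in intron 1 gave 40.9% beginning there. Requiring 1 kb of peak gave 32.1, 86.6 and 92.1% for the 3 results on the start, and requiring a shift of 500 bases gave 53.9 and 62.8%. The pileup ratio was 0.788 unscaled, 0.793 by fold enrichment and 0.777 over bases called in MEF and OSKM. Density calls were 629 at 2-fold and 358 with a pseudocount of 0.2, against 1248. Another 56 values of these results lay within counting error or 1.5 times of the values reported. No paired analysis was possible because there was 1 library for each condition. Gradients inside a peak, replicate spread and enrichment below the calling threshold at this depth could not be read from these lists.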
